A study of Mus musculus with 14 samples.

Results

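The genes examined here are 10 components of hepatic insulin and growth hormone signalling, from hormone receptor to secreted product. They are the insulin receptor (Insr), the insulin receptor substrates Irs1 and Irs2, the kinase Akt2, the transcription factor Foxo1, the growth hormone receptor (Ghr), insulin-like growth factor 1 (Igf1), the acid-labile subunit (Igfals), and the IGF binding proteins Igfbp1 and Igfbp2. They were selected by gene symbol, and each of the 10 was found once among the 25212 genes of the deposited count table. RNA was sequenced from 14 livers of male C57BL/6 mice, with 1 library per liver. The study compared diversion of bile to the ileum with gastric bypass in obese mice.

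All mice received a high fat diet (HFD) with 60% of its energy from fat, started at 6 weeks of age and given for 12 weeks before the mice were allocated to groups. DIO mice (n = 5; diet-induced obesity) stayed on the HFD without an operation, and the operated mice were also kept on the HFD after surgery. In GB-IL mice (n = 4) the common bile duct was ligated and the gallbladder joined to the ileum, 4 cm before the ileo-caecal valve. RYGB mice (n = 5) underwent Roux-en-Y gastric bypass, in which food passes from a small gastric pouch into a limb of small bowel. The labels place the livers 8 weeks after surgery. No library of a sham-operated or chow-fed mouse was analysed here, so surgery itself, weight loss and the altered bile or food route cannot be told apart.

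In hepatocytes, insulin binds the insulin receptor, which phosphorylates IRS1 and IRS2. They recruit PI3-kinase and activate AKT2, and AKT2 phosphorylates FOXO1 so that it leaves the nucleus and its target genes, Igfbp1 and Irs2 among them, are transcribed less. Growth hormone acts through its own receptor, JAK2 and STAT5 to drive hepatic Igf1 and Igfals, whose products circulate together in a complex with IGFBP3, whereas IGFBP1 and IGFBP2 bind IGFs in smaller complexes. The liver is the main source of circulating IGF1.

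Promoter sequence is shown for Igfbp1, Irs2 and Igfals, because Igfbp1 is the gene that passed the test below and all 3 hold a motif of insulin or growth hormone signalling. It is the 250 bases before a RefSeq transcription start on GRCm38.p6, the build of the deposited counts (mm10), written 5′ to 3′ on the gene's own strand. Capitals mark matches, on either strand, to CAAAACA (the core of the insulin response element), GTAAACA (a FOXO and forkhead motif) or TTCNNNGAA (the palindromic STAT element).

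Igfbp1, chr11:7197537-7197786, plus strand: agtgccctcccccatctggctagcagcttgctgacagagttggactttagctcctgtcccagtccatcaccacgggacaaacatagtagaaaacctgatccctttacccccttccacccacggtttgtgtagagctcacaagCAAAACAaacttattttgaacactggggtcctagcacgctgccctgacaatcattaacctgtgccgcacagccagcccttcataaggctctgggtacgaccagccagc

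Irs2, chr8:11008930-11009179, minus strand: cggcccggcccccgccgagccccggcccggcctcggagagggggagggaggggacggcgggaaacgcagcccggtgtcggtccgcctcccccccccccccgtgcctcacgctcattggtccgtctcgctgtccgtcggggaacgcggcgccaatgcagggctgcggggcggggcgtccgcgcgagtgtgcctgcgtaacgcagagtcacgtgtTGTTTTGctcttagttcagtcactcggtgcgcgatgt

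Igfals, chr17:24877981-24878230, plus strand: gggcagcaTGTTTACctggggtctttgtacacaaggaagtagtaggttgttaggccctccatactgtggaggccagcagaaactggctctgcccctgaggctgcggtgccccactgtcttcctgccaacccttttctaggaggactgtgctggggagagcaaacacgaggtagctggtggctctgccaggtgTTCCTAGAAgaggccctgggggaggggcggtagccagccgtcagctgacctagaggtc

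In the Igfbp1 promoter CAAAACA began 108 bases before the start. The same letters, on the opposite strand, began 37 bases before the start in Irs2, and in Irs1 there were matches at 111 and 32 bases before it. CAAAACA was thus found in 3 of the 9 genes for which a promoter was listed (Insr had none), and it occurred in 5.56% of all 32851 RefSeq promoters of this length. Igfals held TTCNNNGAA at 58 bases before this start and GTAAACA at 242 bases before it, and another listed start of Igfals had another TTCNNNGAA. Akt2 also held TTCNNNGAA, 160 bases before 1 of its listed starts, so that this motif was found in 2 of the 9 genes and GTAAACA in 1. Across all promoters 7.02% held TTCNNNGAA and 3.17% held GTAAACA. These shares are per promoter, whereas the counts are per gene, and a gene had up to 4 listed starts. A match describes these letters and does not show that a factor was bound.

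Each library held between 18223135 and 28656631 counts assigned to genes. On the first principal component of all tested genes (48.5% of variance) GB-IL livers 1 and 2 scored 134.3 and 106.1, and the DIO livers scored between -45.7 and -21.9 and GB-IL liver 4 at -35.4. Hepatocyte markers were abundant in every liver. Their summed level was between 129407 and 148283 CPM (counts scaled to the total of each library) in DIO, and it was 101723, 114495, 90809 and 129317 CPM in GB-IL livers 1 to 4, so that all 4 GB-IL livers lay below DIO (two-sided exact permutation p = 0.0159, adjusted p = 0.119 over 30 tests of marker lists). GB-IL liver 1 also carried 1974 CPM of 10 skeletal muscle markers, 1500.5 CPM of 8 pancreas markers and 511 CPM of 10 squamous epithelium markers. In the other 13 libraries the highest sums were 4.33, 37.2 and 39.9 CPM, the last in GB-IL liver 2. Several of these markers were at 0 in most other livers, Pvalb of muscle and Ivl of squamous epithelium among them. Cholangiocyte markers summed to 317, 253, 221 and 72.2 CPM in GB-IL livers 1 to 4, against 47.8 to 76.2 CPM in DIO. Neutrophil markers summed to 109, 49.0, 378 and 6.93 CPM in the same livers, to 123 CPM in RYGB liver 5, and to no more than 13.01 CPM in the other 9 livers. No marker list differed between groups after adjustment over the 30 tests. In whole liver, fewer cells of a type and less RNA per cell cannot be told apart, and the part of these markers in the results below was not tested. Differences that rest on GB-IL livers 1 and 2 are therefore also given without both, a setting chosen after seeing the data.

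**Figure D1:**
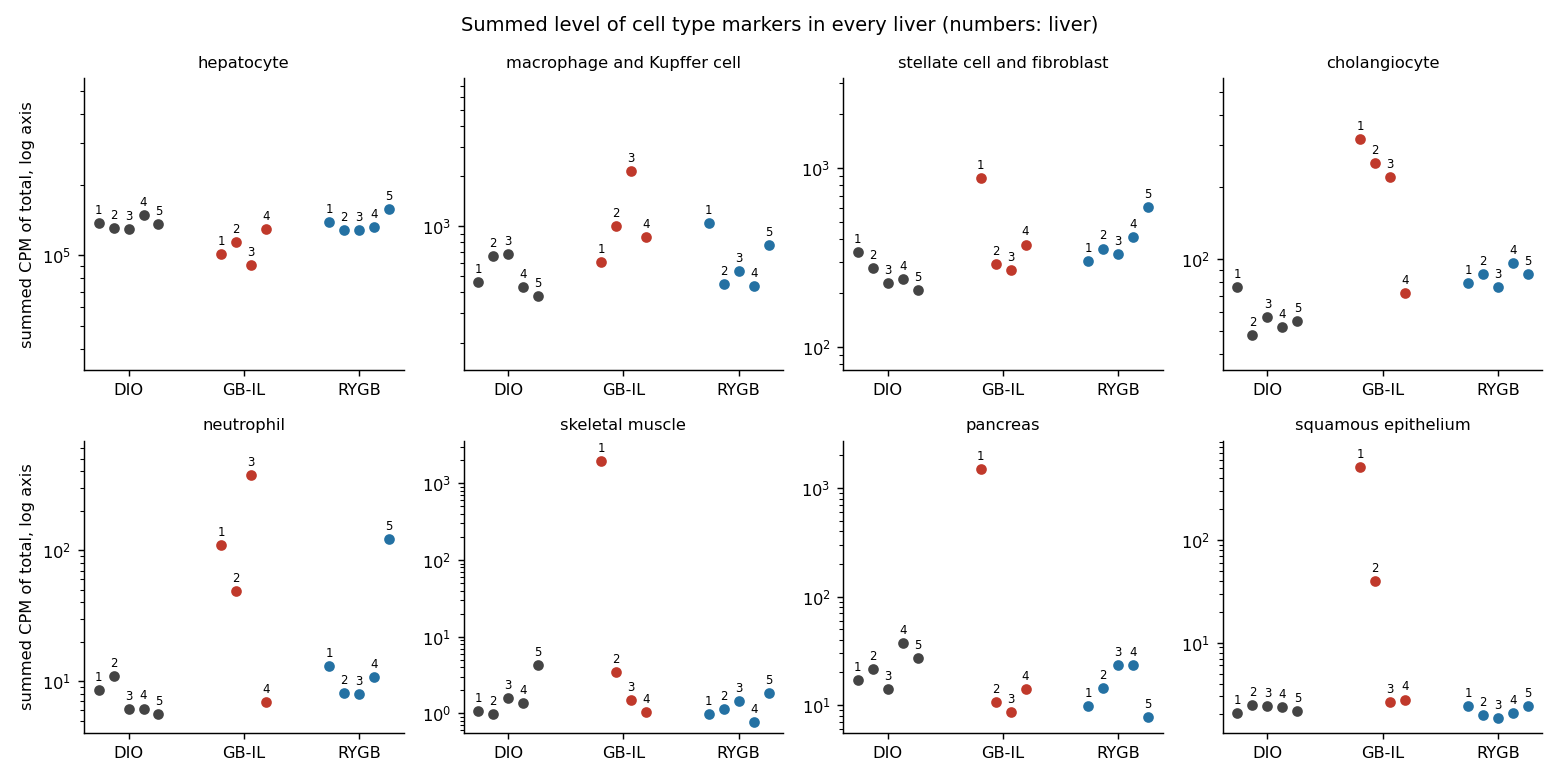
Summed CPM of 8 lists of cell type markers in each of the 14 livers (1 point per liver, numbered; log axes). GB-IL liver 1 stands alone at 1974 CPM of skeletal muscle and 1500.5 CPM of pancreas markers, and GB-IL livers 1 to 3 carry 221 to 317 CPM of cholangiocyte markers against 47.8 to 76.2 CPM in DIO.

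Of the 10 genes, 1 passed an adjusted p of 0.05 in GB-IL relative to DIO, namely Igfbp1, which rose. Of all 14252 genes tested, 3.15% rose at that threshold and 3.26% changed in either direction. At an unadjusted p under 0.05, 4 of the 10 passed in this comparison (Igfbp1, Igfbp2 and Irs2 higher, Igfals lower), where 23.1% of all genes did. For none of the 10 genes were the GB-IL and DIO ranges fully apart, as they were for 4.17% of all genes. None of the 10 passed the adjusted threshold in RYGB relative to DIO, where 0.0% of all genes did, or in GB-IL relative to RYGB, where 0.0% did. At an unadjusted p under 0.05, Igfbp2 alone passed in RYGB relative to DIO (8.71% of all genes), and Irs1 and Igfbp1 passed in GB-IL relative to RYGB (22.1%). Across the 10 genes the log2 fold change had a median of -0.11 in GB-IL and 0.08 in RYGB relative to DIO, against 0.04 and 0.01 for all tested genes. The DIO livers are the reference in both of these comparisons, which are therefore not independent. Here and below, adjusted p-values come from the quasi-likelihood test of edgeR, with the Benjamini-Hochberg method applied over all tested genes, and levels of single genes are CPM scaled by TMM.

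**Figure D2:**
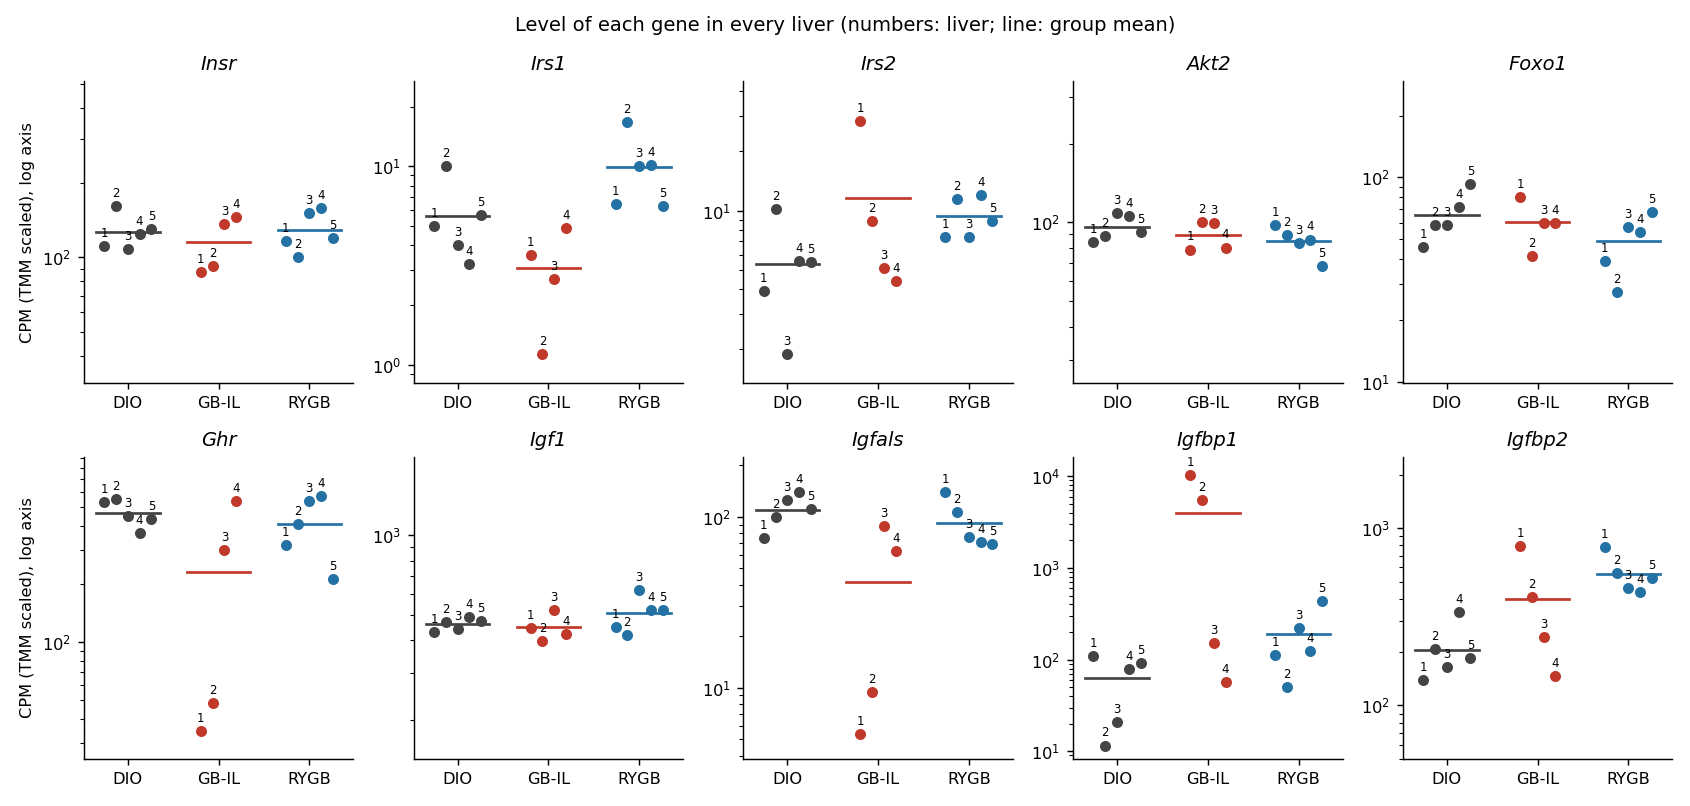
CPM of each of the 10 genes in every liver (log axes, 1 numbered point per liver, line at the group mean). GB-IL livers 1 and 2 stand apart for Igfbp1 (10216 and 5514 CPM), Ghr (34.9 and 48.7 CPM) and Igfals (5.36 and 9.43 CPM), whereas Igf1 stays between 399 and 619 CPM in all 14 livers.

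Levels can be set beside each other between genes once divided by the length of their exons. In DIO livers Igfbp2 led the 10 genes, with 112 ± 41.3 CPM per kb (SD, n = 5). Ghr, Igf1, Igfbp1 and Igfals followed at 51.8, 46.6, 41.0 and 34.7 CPM per kb, and each of these overlapped its neighbour in the order. Akt2 was at 13.4 CPM per kb, below every liver's value for those 5 genes except Igfbp1. Insr (9.26) and Foxo1 (7.55 CPM per kb) overlapped, and Irs2 and Irs1, at 0.853 and 0.613 CPM per kb, were the lowest and overlapped with each other. In RYGB the order was the same except that Igfbp1 stood second, at 124 ± 99.7 CPM per kb (SD, n = 5), and Igf1 followed it. In GB-IL Igfbp1 came first, at 2613 ± 3197 CPM per kb (SD, n = 4), where 2 of the 4 livers were above every RYGB liver.

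Insr encodes the receptor itself (chr8:3122061-3279617, minus strand). Its level was 111, 161, 109, 125 and 131 CPM in DIO livers 1 to 5, 86.9, 92.3, 137 and 146 CPM in GB-IL livers 1 to 4, and 116, 100.1, 152, 158 and 120.2 CPM in RYGB livers 1 to 5. All 3 groups overlapped, and GB-IL livers 1 and 2 were the lowest of the 14. Relative to DIO, Insr differed by -0.14 ± 0.21 (log2 fold change ± SE) in GB-IL and by 0.02 ± 0.20 in RYGB, with adjusted p of 0.690 and 0.981.

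Irs1, the first of the docking proteins (chr1:82233101-82291416, minus strand), was scarce. It measured 5.02, 10.1, 4.02, 3.23 and 5.67 CPM in DIO livers, 3.57, 1.13, 2.71 and 4.87 CPM in GB-IL livers, and 6.45, 16.8, 10.03, 10.1 and 6.33 CPM in RYGB livers. Every GB-IL liver lay below every RYGB liver, while the DIO livers overlapped both. The 2 operated groups did not overlap for 2.84% of all tested genes. Irs1 was 3.22-fold lower in GB-IL than in RYGB (log2 fold change -1.69 ± 0.43, adjusted p = 0.0876 by edgeR, exact permutation p = 0.0159, the smallest possible with 4 and 5 livers), which did not pass the threshold. DESeq2 gave an adjusted p of 0.0056 and edgeR's exact test 0.0112 for the same difference. These methods called 845 and 681 of all tested genes in this comparison. Without GB-IL livers 1 and 2 the log2 fold change was -1.41. Against DIO, Irs1 differed by -0.86 ± 0.42 on the log2 scale in GB-IL and by 0.83 ± 0.39 in RYGB (adjusted p = 0.237 and 0.573).

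Irs2, the other main docking protein of liver (chr8:10984681-11008458, minus strand), measured 3.92, 10.1, 1.88, 5.54 and 5.48 CPM in DIO livers, 28.2, 8.81, 5.13 and 4.39 CPM in GB-IL livers, and 7.38, 11.4, 7.32, 11.96 and 8.90 CPM in RYGB livers. GB-IL liver 1 was the highest of the 14, and the remaining GB-IL livers lay within the DIO range. The log2 fold change of 1.10 ± 0.51 in GB-IL relative to DIO (adjusted p = 0.214 by edgeR) became 0.17 without that liver and -0.20 without GB-IL livers 1 and 2. GB-IL liver 1 is also the library with the muscle, pancreas and squamous markers. In RYGB the log2 fold change was 0.80 ± 0.49 (adjusted p = 0.672). A gene on the opposite strand, 9530052E02Rik, overlaps exons of Irs2 and had 0 to 5 counts per liver, against 37 to 536 for Irs2. Genes on the opposite strand also overlap exons of Irs1 (Gm9747) and Foxo1 (Gm20402), and neither was analysed here. The strand setting of the counting is not given in the sources used here, so reads of a gene and of its antisense partner cannot be told apart.

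Akt2, the insulin-responsive AKT kinase (chr7:27591552-27640826, plus strand), was nearly level. It lay between 84.0 and 108 CPM in DIO (95.8 ± 10.7, mean ± SD, n = 5), between 78.8 and 100.6 CPM in GB-IL (89.8 ± 11.8, n = 4), and between 68.2 and 97.9 CPM in RYGB (85.1 ± 10.9, n = 5). Its log2 fold change relative to DIO was -0.09 ± 0.16 in GB-IL and -0.17 ± 0.15 in RYGB.

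Foxo1, the forkhead factor that AKT2 phosphorylates (chr3:52268336-52353221, plus strand), measured 45.8 to 92.4 CPM in DIO, 41.1 to 80.3 CPM in GB-IL and 27.6 to 67.5 CPM in RYGB. The 3 ranges overlapped. Foxo1 differed from DIO by -0.12 ± 0.27 on the log2 scale in GB-IL and by -0.42 ± 0.26 in RYGB (adjusted p = 0.803 and 0.672). Thus none of the components from receptor to FOXO1 passed the threshold by edgeR's quasi-likelihood test in any of the 3 comparisons. Of all tested genes, 3.26% passed in GB-IL relative to DIO and 0.0% in each of the other comparisons. DESeq2 and edgeR's exact test called Irs1 in GB-IL relative to RYGB, where they called 845 of 14176 and 681 of 14252 tested genes. Voom called Irs1 and Irs2 in RYGB relative to DIO, where it called 1690 of 14252 tested genes. These values are mRNA levels, and phosphorylation was not measured in this assay.

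Ghr, the growth hormone receptor (chr15:3317760-3583492, minus strand), measured 532, 555, 450.0, 370.1 and 435 CPM in DIO livers. The GB-IL livers had 34.9, 48.7, 302 and 540.5 CPM, and the RYGB livers had 319.7, 410.0, 538, 572 and 212 CPM. GB-IL livers 1 and 2 were at 7.45% and 10.4% of the DIO mean, GB-IL liver 3 lay below every DIO liver, and GB-IL liver 4 lay within their range. Ghr in GB-IL, at -1.02 ± 0.61 on the log2 scale, did not pass (adjusted p = 0.316). It was -1.87 with an adjusted p of 0.0356 when GB-IL liver 4 was left out. In that fit 3572 of 14492 tested genes passed. Ghr was at -0.17 without GB-IL livers 1 and 2. In RYGB it was -0.19 ± 0.57 (adjusted p = 0.942), with liver 5 lowest at 45.2% of the DIO mean.

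Igfals encodes the liver-derived subunit that keeps IGF1 in its large circulating complex (chr17:24865997-24882010, plus strand). DIO livers held 75.3, 99.8, 125, 139 and 110.2 CPM, GB-IL livers 5.36, 9.43, 88.7 and 62.7 CPM, and RYGB livers 140.2, 106, 75.6, 70.8 and 68.8 CPM. In GB-IL, livers 1, 2 and 4 lay below every DIO liver, and livers 1 and 2 were 20.5 and 11.7 times below the DIO mean. As a log2 fold change relative to DIO this was -1.40 ± 0.61 (p = 0.0361 and adjusted p = 0.188 by edgeR, exact permutation p = 0.0317), and -0.56 without GB-IL livers 1 and 2. RYGB livers overlapped DIO, with a log2 fold change of -0.25 ± 0.55 (adjusted p = 0.926).

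Igf1, the growth factor itself (chr10:87858265-87937042, plus strand), had the smallest spread of the 10 genes across the 14 livers. DIO livers held 429, 470.4, 442, 492 and 474 CPM, GB-IL livers 447, 399, 522 and 423 CPM, and RYGB livers 449, 420.3, 619, 519.7 and 523 CPM. Its highest liver exceeded its lowest 1.55-fold, whereas this ratio was 1.59 for Akt2, 16.4 for Ghr and 26.2 for Igfals. GB-IL livers 1 and 2, which held the lowest Ghr and Igfals, had 96.9% and 86.4% of the DIO mean of Igf1. Relative to DIO the log2 fold change of Igf1 was -0.04 ± 0.17 in GB-IL and 0.13 ± 0.16 in RYGB (adjusted p = 0.892 and 0.852).

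Igfbp1 encodes the binding protein whose hepatic transcription insulin represses (chr11:7197782-7202546, plus strand), and its promoter with the CAAAACA element is printed above. DIO livers held 109, 11.6, 20.8, 79.4 and 92.4 CPM. GB-IL livers held 10216, 5514, 150.0 and 56.6 CPM, and RYGB livers held 113, 50.3, 223, 123 and 438 CPM. GB-IL livers 1 and 2 were thus at 163 and 88.1 times the DIO mean, liver 3 was above the highest DIO liver, and liver 4 lay within the DIO range. In GB-IL liver 1 the gene took 194485 counts, or 0.953% of the library, against 0.00122% to 0.0107% in DIO. The log2 fold change in GB-IL relative to DIO was 5.99 ± 1.29 (SE; 63.7-fold, adjusted p = 0.0310 by edgeR), and 3 of 4 GB-IL livers exceeded the highest DIO liver (exact permutation p = 0.0952). The size depended on the method, since voom with sample quality weights gave 2.26 on the log2 scale (adjusted p = 0.314) and the difference of mean log2 CPM was 4.19. Voom did not call Igfbp1 here, although it called 589 of all tested genes.

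Leaving out 1 liver at a time, the call of Igfbp1 held in 7 of 14 fits (adjusted p between 0.00182 and 0.0942). It was lost without DIO livers 1, 2, 3, 4 or 5 (adjusted p = 0.0728, 0.0749, 0.0727, 0.0852 and 0.0942) and without GB-IL livers 1 or 2 (adjusted p = 0.0845 and 0.0598). Its log2 fold change stayed between 5.74 and 6.29 in the 5 fits that lacked a DIO liver, and was 4.94 and 5.79 in those that lacked GB-IL liver 1 or 2. In each of these 7 fits 0 of all tested genes passed, so the loss was not particular to Igfbp1. Without GB-IL livers 1 and 2 together the log2 fold change was 0.69 ± 0.81 (adjusted p = 0.955). In RYGB 4 of 5 livers exceeded all DIO livers, with a log2 fold change of 1.597 ± 1.05 that did not pass (adjusted p = 0.697, exact permutation p = 0.0873). In GB-IL relative to RYGB the log2 fold change was 4.40 ± 1.198 (adjusted p = 0.0948). DESeq2 (adjusted p = 0.0056) and edgeR's exact test (0.00769) placed that difference under 0.05, and without GB-IL livers 1 and 2 it was -0.90. Of all tested genes, DESeq2 called 845 and the exact test 681 in this comparison.

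Igfbp2, the gene with the highest level per length of the 10 in DIO liver (chr1:72824503-72852474, plus strand), measured 139.7, 207, 164, 335 and 184 CPM in DIO livers. GB-IL livers held 791, 409, 244 and 146 CPM, and RYGB livers held 784, 561, 462, 436 and 521 CPM. Every RYGB liver lay above every DIO liver (exact permutation p = 0.00794, the smallest that 5 against 5 livers allow), and RYGB and DIO livers did not overlap for 3.53% of all tested genes. The RYGB mean was 2.68-fold the DIO mean, with a log2 fold change of 1.42 ± 0.39, but over all tested genes the adjusted p was 0.348 by edgeR. DESeq2 (adjusted p = 0.0391), a fit of the 2 groups alone (0.0375) and voom with sample quality weights (0.0080) placed the same difference under 0.05. These were 3 of 11 alternative fits, and they called 97, 33 and 1690 of all tested genes. Igfbp2 passed in 0 of the 14 edgeR fits that left out 1 liver (adjusted p between 0.179 and 0.872). Leaving out each RYGB liver in turn gave log2 fold changes between 1.264 and 1.498. In GB-IL, livers 1 and 2 lay above the DIO range and livers 3 and 4 within it. The log2 fold change there was 0.95 ± 0.40 (adjusted p = 0.178), and -0.10 without GB-IL livers 1 and 2. For Igfbp2 the log2 fold change of GB-IL relative to RYGB was -0.48 ± 0.40 (adjusted p = 0.474).

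**Figure D3:**
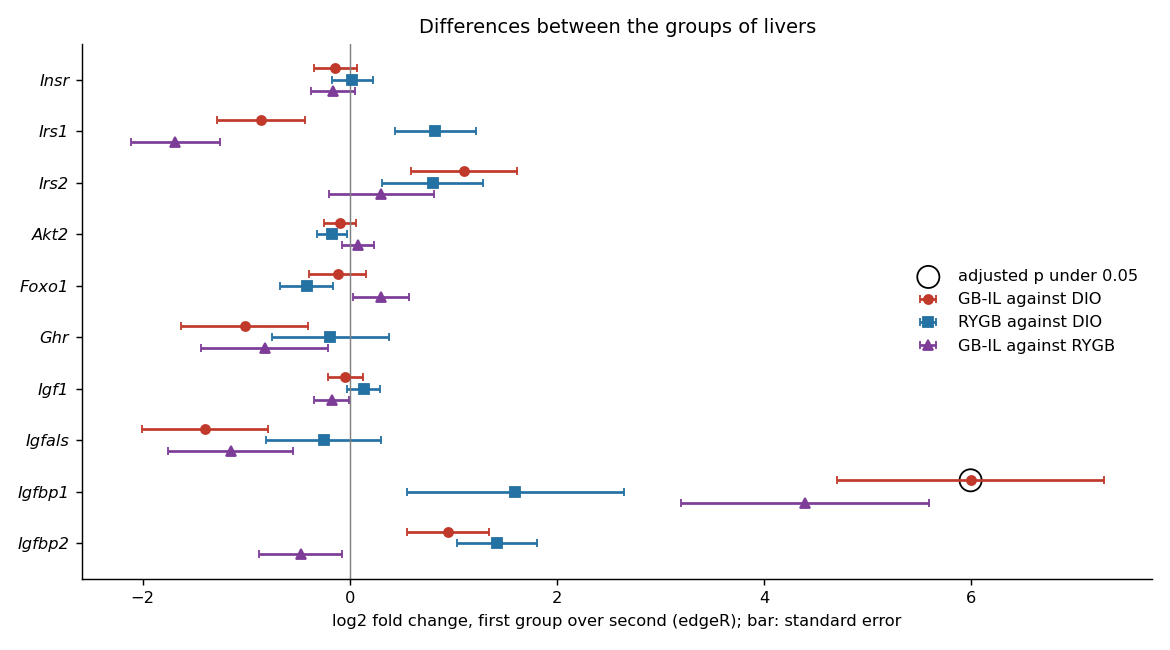
Log2 fold change of the 10 genes (edgeR, bars are standard errors) for GB-IL against DIO, RYGB against DIO and GB-IL against RYGB, with a ring where the adjusted p is under 0.05. Igfbp1 in GB-IL against DIO, at 5.99 ± 1.29, carries the only ring, and Igf1 and Akt2 lie close to 0 throughout.

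Seen by liver rather than by group, the GB-IL livers differed widely. Livers 1 and 2 had Igfbp1 and Igfbp2 above and Ghr and Igfals below every DIO liver. Liver 3 had Igfbp1 above and Ghr below every DIO liver, at 2.40 times and 64.6% of the DIO mean. Liver 4 lay within the DIO range for Igfbp1, Igfbp2 and Ghr and below it for Igfals, at 57.0% of the DIO mean. The RYGB livers were more alike for Igfbp2, with a coefficient of variation of 25.0% against 71.4% in GB-IL, and RYGB liver 5 combined the highest Igfbp1 (6.996 times the DIO mean) with the lowest Ghr of its group.

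**Figure D4:**
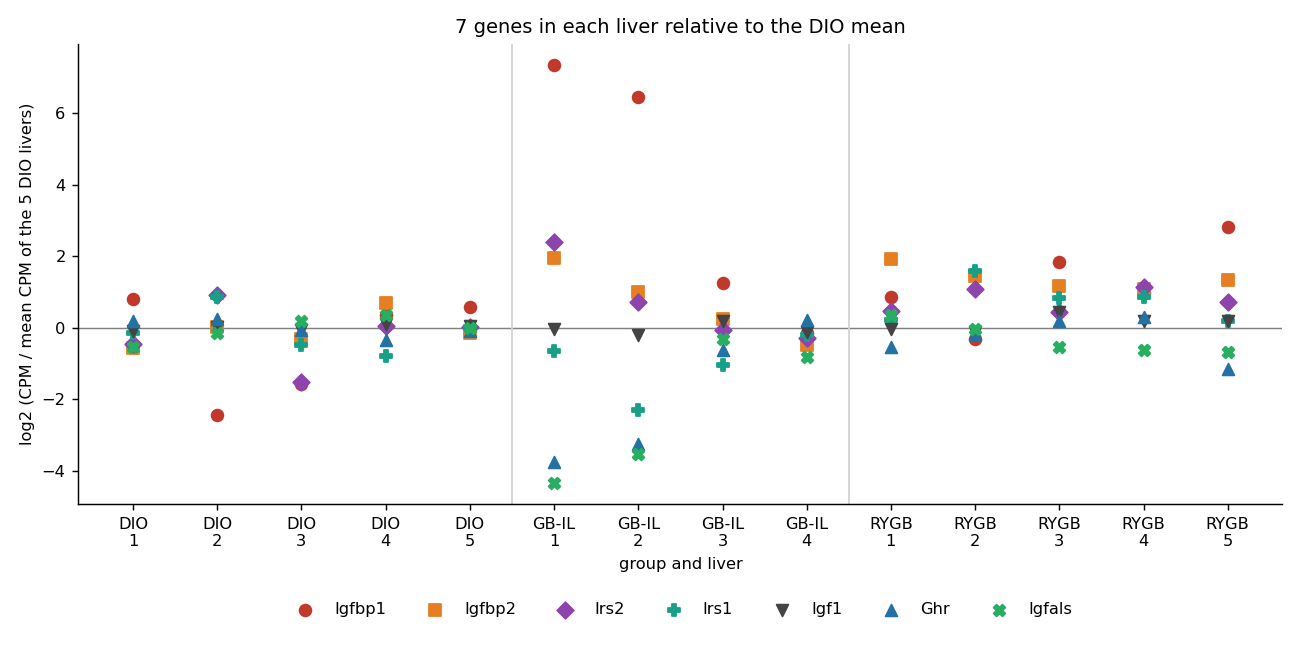
Log2 ratio of CPM to the mean of the 5 DIO livers for 7 of the genes in each of the 14 livers. In GB-IL livers 1 and 2 Igfbp1 lies at 7.35 and 6.46 and Igfals at -4.36 and -3.54, while Igf1 lies at -0.05 and -0.21.

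Across the 14 livers, the gene whose log2 CPM most resembled that of each member was sought among 12686 genes. For Ghr it was Pm20d1 (Pearson r = 0.996 over 14 livers), for Igfals Slc26a1 (r = 0.977) and for Igfbp1 Dstn (r = 0.951). For Insr it was 4933411K20Rik (r = 0.950), for Irs1 Smad3 (r = 0.943), for Akt2 Tmem205 (r = 0.938) and for Irs2 Ppfia1 (r = 0.922). The likeness was lower for Igfbp2 (Strn4, r = 0.872), Foxo1 (Tob2, r = 0.856) and Igf1 (9530068E07Rik, r = 0.803). These values describe the livers, which share the groups and the displacement of GB-IL livers 1 and 2.

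The other genes of the pathways were read from 4 lists with 81 genes, of which 71 passed the filter on low counts. In GB-IL relative to DIO, 3 of the 71 rose and 0 fell at an adjusted p under 0.05, where 3.26% of all genes changed. At an unadjusted p under 0.05, 24 of 71 passed (33.8%), where 23.1% of all genes did. In RYGB relative to DIO, 0 passed the adjusted and 3 the unadjusted threshold (4.23%, against 8.71% of all genes). In GB-IL relative to RYGB these counts were 0 and 18 (25.4%, against 22.1%).

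Of the insulin signalling core, which runs from PI3-kinase to mTORC1 and its inhibitors, 37 genes were tested and 0 passed the adjusted threshold in any comparison. In GB-IL relative to DIO their median log2 fold change was -0.11. At an unadjusted p under 0.05, 4 of the 37 were higher and 5 lower. Of all 14252 tested genes, 2381 were higher and 916 lower at that threshold (23.1% in either direction). Trib3, a pseudokinase that binds AKT, differed by 1.19 ± 0.36 on the log2 scale (adjusted p = 0.0829) and Ptpn1, the tyrosine phosphatase that acts on the insulin receptor, 0.52 ± 0.20 (adjusted p = 0.147). Rptor, the scaffold of mTORC1, had -0.38 ± 0.15 and lay lower in all 4 GB-IL livers than in any DIO liver (adjusted p = 0.145). GB-IL and DIO livers did not overlap for 4.17% of all tested genes. Pik3r1, a regulatory subunit of PI3-kinase, had -0.60 ± 0.38. When GB-IL livers 1 and 2 were left out, the log2 values were 0.42 for Trib3, 0.36 for Ptpn1, -0.20 for Rptor and -0.0131 for Pik3r1. Grb10, an adaptor that inhibits the insulin receptor, was higher in all 4 GB-IL livers (3.61 to 5.78 CPM) than in any DIO liver (2.26 to 2.93 CPM), with a log2 fold change of 0.75 ± 0.45 (adjusted p = 0.311 by edgeR, exact permutation p = 0.0159). It was also higher in all 5 RYGB livers than in any DIO liver (log2 fold change 1.21 ± 0.42, adjusted p = 0.468), with 15.7 CPM in RYGB liver 5 and at most 4.27 CPM in the other RYGB livers, and 0.42 on the log2 scale without liver 5. RYGB and DIO livers did not overlap for 3.53% of all tested genes. The related inhibitor Grb14 had 0.39 ± 0.19 in RYGB relative to DIO (adjusted p = 0.573).

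Of the 11 tested genes of the IGF system, 9 had a log2 fold change above 0 in GB-IL relative to DIO. The median of the 11 was 1.204, against 0.04 for all tested genes, and 1 passed, where 3.26% of all genes did. The list also holds Igf2bp2, an IGF2 mRNA binding protein, which was among the 9 (0.74 on the log2 scale). Igfbp6, which binds IGF2 preferentially, rose 6.90-fold (log2 fold change 2.79 ± 0.69, adjusted p = 0.0426 by edgeR). It measured 0.471, 1.38, 1.07, 1.53 and 0.625 CPM in DIO livers (9 to 28 counts) and 19.7, 1.98, 4.79 and 1.66 CPM in GB-IL livers. All 4 GB-IL livers thus lay above DIO, liver 1 by the most, and these groups did not overlap for 4.17% of all tested genes. GB-IL liver 1 is also the library with the muscle, pancreas and squamous markers. Its stellate cell and fibroblast markers summed to 879 CPM, against 208 to 340 CPM in DIO. The part of these markers in Igfbp6 was not tested. Leaving out 1 liver at a time, the call of Igfbp6 held in 4 of 14 fits (adjusted p between 0.00556 and 0.214, log2 fold change between 1.46 and 3.11). Leaving out any single DIO liver ended it, as did GB-IL liver 1 or 2 and RYGB liver 1, 2 or 4. In the 5 fits that lacked a DIO liver Igfbp6 stayed between 2.60 and 2.98 on the log2 scale, and it was 1.46 without GB-IL liver 1 and 1.64 without livers 1 and 2. Igfbp3, the main partner of IGF1 and the acid-labile subunit, had 1.204 ± 0.35 (adjusted p = 0.0748) and Igf2, the fetal growth factor, 1.79 ± 0.48 (adjusted p = 0.0561). Igf2 was scarce, with 3 to 8 counts in a DIO liver and 6 to 40 in a GB-IL liver. The type 1 receptor Igf1r was low, at 0.461, 1.23 and 0.872 CPM in DIO, GB-IL and RYGB, and the clearance receptor Igf2r had -0.48 ± 0.32 in GB-IL. Without GB-IL livers 1 and 2 the values were 0.45 for Igfbp3, 1.43 for Igf2 and 0.0421 for Igf2r, and the median of the list was 0.56 over the 12 genes then tested. Igfbp4 was high and even, at 1635, 1445 and 1355 CPM in the same order. In RYGB, Stc2, an inhibitor of the IGF binding protein protease PAPP-A, had 2.98 ± 0.94 as log2 fold change (adjusted p = 0.426), with 7.34 CPM in liver 5 and at most 1.04 CPM in the other RYGB livers, and 1.007 without liver 5.

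Of the 13 tested genes of the growth hormone list, 2 rose in GB-IL relative to DIO, where 3.15% of all genes did. The log2 fold change was below 0 for 8 of the 13, and the median was -0.72, against 0.04 for all tested genes. Socs3, an inhibitor of cytokine receptor signalling induced by STAT3, rose 6.19-fold (log2 fold change 2.63 ± 0.63, adjusted p = 0.0383 by edgeR). It measured 9.89, 11.7, 8.85, 9.39 and 17.98 CPM in DIO livers and 164, 73.5, 44.7 and 4.80 CPM in GB-IL livers, so that liver 4 lay below DIO and the other GB-IL livers above it. Sirpa, a transmembrane glycoprotein of myeloid cells and a substrate of JAK2, rose 2.85-fold (log2 fold change 1.51 ± 0.34, adjusted p = 0.0320). It measured 20.7, 28.98, 36.1, 19.7 and 20.5 CPM in DIO livers and 44.4, 59.9, 142 and 41.4 CPM in GB-IL livers. All 4 GB-IL livers lay above DIO, and 4.17% of all tested genes had no overlap between these groups. Liver 3, which also had the highest macrophage marker sum (2148 CPM, against 382 to 683 CPM in DIO), was the highest for Sirpa. The part of macrophages in the level of Sirpa was not tested. When 1 liver was left out, the call of Socs3 held in 4 of 14 fits (adjusted p between 0.000594 and 0.157) and that of Sirpa in 7 of 14 (0.00397 to 0.0959). Leaving out any single DIO liver, or GB-IL liver 1 or 2, ended both, and RYGB liver 1, 2 or 3 also ended that of Socs3. In the 5 fits that lacked a DIO liver the log2 values stayed between 2.55 and 2.85 for Socs3 and between 1.43 and 1.66 for Sirpa, and there, as without GB-IL liver 1 or 2, 0 of all tested genes passed. Without GB-IL livers 1 and 2 together Socs3 was at 1.06 ± 0.59 and Sirpa at 1.83 ± 0.36 (adjusted p = 0.723 and 0.103), and the median of the list was -0.16 over the 14 genes then tested. In that fit 0 genes of the 4 lists passed.

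The genes through which growth hormone acts on its targets did not pass the threshold. Stat5a and Stat5b, the transducers of the receptor, had log2 fold changes of -0.80 ± 0.26 and -0.63 ± 0.24 in GB-IL (adjusted p = 0.0962 and 0.138). Stat5b measured 21.3, 23.3, 45.7 and 39.4 CPM in GB-IL livers against 42.9 to 60.2 CPM in DIO, and was lowest in livers 1 and 2, without which Stat5a stood at -0.36 and Stat5b at -0.26. The feedback inhibitors Cish and Socs2, both STAT5 targets, had -1.13 ± 0.74 and 0.97 ± 0.60, and the male-biased cytochrome Cyp2d9 had -0.85 ± 0.44. Without livers 1 and 2 these were -1.73, -0.0213 and -1.11. Cish measured 53.3 CPM in DIO liver 2 and 4.83 to 21.7 CPM in the other DIO livers. Its log2 fold change in GB-IL was -0.33 when DIO liver 2 was left out. In RYGB relative to DIO none of the 13 passed the unadjusted threshold, where 8.71% of all genes did, and Stat5b had 0.15 ± 0.22.

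Of 10 genes regulated by FOXO1 or insulin, 0 passed the adjusted threshold in any comparison. Of all tested genes, 3.26% passed it in GB-IL relative to DIO and 0.0% in the other comparisons. Pck1, a gluconeogenic enzyme repressed by insulin, stood at 0.70 ± 0.29 on the log2 scale in GB-IL (adjusted p = 0.175), with 5139, 3792, 3786 and 2815 CPM in GB-IL livers against 1547 to 3190 CPM in DIO. Its coactivator Ppargc1a had 1.08 ± 0.40 (adjusted p = 0.135), from 27.2, 43.7, 12.9 and 11.7 CPM in GB-IL livers against 7.64 to 18.5 CPM in DIO, so that only livers 1 and 2 lay above the DIO range. On the same scale, G6pc, the last enzyme of glucose output, had -0.34 ± 0.38 there. Srebf1, the lipogenic factor downstream of insulin, had -0.87 ± 0.49, and Pdk4, a kinase that inhibits pyruvate dehydrogenase, 2.12 ± 1.01 in GB-IL and 2.02 ± 0.97 in RYGB. Each Pdk4 value rested on 1 liver, namely GB-IL liver 1 (86.9 CPM, the others 2.63 to 8.58) and RYGB liver 5 (90.6 CPM, the others 4.10 to 11.3, and DIO 3.21 to 13.8), without which it was 0.0552 and 0.44. Pck1 was at 0.44, Ppargc1a at 0.11, G6pc at -0.51 and Srebf1 at -0.20 without GB-IL livers 1 and 2. For these lists no test of the set as a whole was made.

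**Figure D5:**
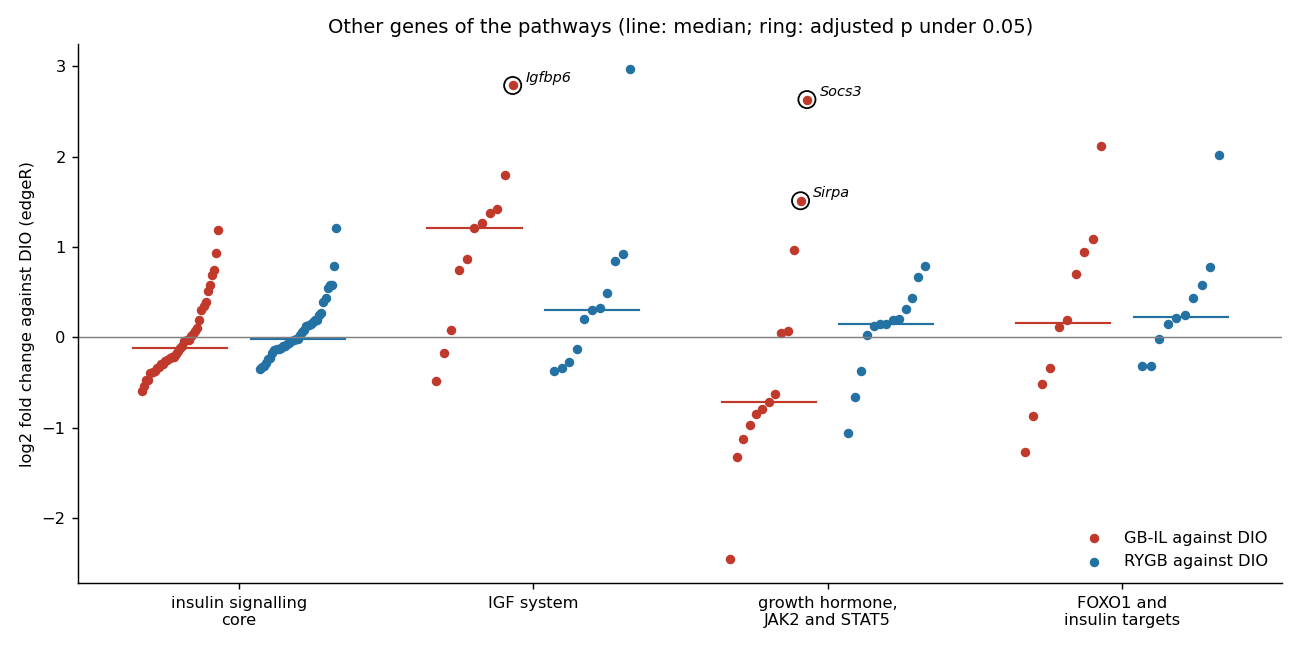
Log2 fold change against DIO (edgeR) of the 71 tested genes of the 4 pathway lists, with the median of each list as a line and a ring where the adjusted p is under 0.05. In GB-IL the IGF system has a median of 1.204 and the growth hormone list -0.72, and the 3 rings are Igfbp6, Socs3 and Sirpa, whereas no gene is ringed in RYGB.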

How the data were processed

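Liver RNA of 14 mice was amplified and sequenced on the Illumina HiSeq, with 1 library per liver from a separate mouse. The authors aligned the reads to mm10 (TopHat 2) and used HTSeq for counting. The deposited values are whole counts per gene with no normalization. Which versions, gene annotation and strand option were used is not stated in the sources read here. Per the labels 2 library kits were used, for stranded mRNA and for stranded total RNA, and they are not tied to livers. A kit effect could therefore not be modelled. Gene symbols were read from the row names.

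The main test was the quasi-likelihood test of edgeR 4.0.16 in R 4.3.3, on genes kept by filterByExpr. TMM scaling was applied and 1 mean per group was fitted to all 14 livers, with Benjamini-Hochberg adjustment over 14252 genes at 0.05. The code was tested on simulated data. Exact two-sided permutation tests compared log2 CPM (prior count 2 for genes). Marker sums are CPM of the total count. Gene positions and exon lengths are those of GENCODE M21 (GRCm38), and promoters are those of RefSeq.

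The members, lists and tests were chosen with earlier results of these data known. Genes named are the 10 members, list genes chosen by role (1 of them is not reported here), and the most alike gene of each member. From each list the 3 genes with the smallest p in GB-IL and the 2 in RYGB relative to DIO were added. Alternatives were other scaling (RLE, upper quartile), DESeq2 1.42.0, edgeR's exact test, voom with sample quality weights (limma 3.58.1), robust estimation, no filter, a mean of at least 50 counts, 2 groups only, a replicate block and leaving out each liver. Totals of 18223135 to 28656631 counts limit the precision of low genes such as Irs1, with 20 to 341 counts per liver.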

Additional observations from a re-analysis of the deposited data

Results flagged for a closer look

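Of 105 groups of gene values and 30 groups of marker sums, 15 held a liver whose distance from the others exceeded Dixon's 95% critical value, and chance marks about 1 in 20 groups. None of them concerned the 10 receptor, substrate and IGF genes. The distance runs from 1 extreme liver to the next, so the rule can miss 2 livers that lie apart together. GB-IL livers 1 and 2 did so for Igfbp1, Ghr and Igfals. In GB-IL, liver 1 was highest for markers of skeletal muscle (1974 CPM, next 3.48), pancreas (1500.5 CPM, next 13.97) and squamous epithelium (511 CPM, next 39.9), and for Pdk4 (86.9 CPM, next 8.58). In RYGB, liver 5 was highest for markers of neutrophils (123 CPM, next 13.01) and endothelial cells (865 CPM, next 406), and for Pdk4 (90.6 CPM, next 11.3), Grb10 (15.7 CPM, next 4.27), Stc2 (7.34 CPM, next 1.04) and Igf1r (2.32 CPM, next 0.703). Also in RYGB, liver 1 was highest for Igfbp4 (2028.5 CPM, next 1259). Among DIO livers, liver 1 was highest for Pdk4 (13.8 CPM, next 5.24), liver 2 for Stc2 (0.443 CPM, next 0.209), liver 4 for Trib3 (10.4 CPM, next 5.85) and liver 5 for skeletal muscle markers (4.33 CPM, next 1.58).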

How the results depend on the processing

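In GB-IL relative to DIO, the count of members called (1) was 0 with voom, with 2 groups only, with the replicate block and without GB-IL livers 1 and 2, and 0 to 3 leaving out 1 liver. List genes called (3) were 8 with DESeq2, 7 with the exact test, 1 with voom and 0 with 2 groups only, the block or without GB-IL livers 1 and 2, and 0 to 19 leaving out 1 liver. All genes called (465) were 1292 with DESeq2, 1129 with the exact test, 589 with voom and 1 with the block. They were 0 with 2 groups only or without GB-IL livers 1 and 2. Leaving out 1 liver gave 0 to 3572, the highest without GB-IL liver 4. In RYGB relative to DIO, members called (0) were 1 with DESeq2 (Igfbp2), 3 with voom (Irs1, Irs2 and Igfbp2) and 1 with 2 groups only, list genes (0) were 5 with voom, and all genes (0) were 97 with DESeq2, 44 with the exact test, 1690 with voom, 33 with 2 groups only and 0 to 5 leaving out 1 liver. In GB-IL relative to RYGB, members (0) were 2 with DESeq2 and 2 with the exact test (Irs1 and Igfbp1), and 0 to 2 leaving out 1 liver. List genes (0) were 11, 7 and 0 to 18 in the same order, and all genes (0) were 845, 681 and 0 to 3120, with 115 by voom and 51 with no filter. The cause of these differences was not tested.

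Without GB-IL livers 1 and 2 the log2 fold change turned direction for Insr (0.13), Irs2 (-0.20), Igf1 (0.0121) and Igfbp2 (-0.10) in GB-IL relative to DIO, and for Insr (0.11), Irs2 (-1.003), Ghr (0.0204) and Igfbp1 (-0.90) relative to RYGB. With voom it turned for Igf1 (0.0192) in GB-IL and Ghr (0.0451) in RYGB relative to DIO and for Irs2 (-0.66) in GB-IL relative to RYGB, where the difference of mean log2 CPM was -0.0837. Leaving out 1 liver, Foxo1 in GB-IL relative to DIO ranged from -0.30 to 0.0337, Insr in RYGB relative to DIO from -0.0594 to 0.13, and in GB-IL relative to RYGB Akt2 from -0.00557 to 0.13 and Irs2 from -0.63 to 0.57. With TMM-scaled CPM the marker difference turned for hepatocytes in RYGB relative to DIO (-0.0779) and endothelial cells in GB-IL relative to DIO (0.0319), and hepatocytes in GB-IL relative to RYGB (-0.21) no longer passed an unadjusted 0.05. Leaving out livers was not run for marker sums, whose values are given per liver.

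The groups share liver numbers, and the livers were treated as unpaired. Over 13 same-numbered pairs the correlation of deviations ranged from -0.381 to 0.381, and 2 pairs exceeded 0.1. Over 52 pairs with different numbers it ranged from -0.41 to 0.466, and 17 exceeded 0.1. With so few livers per group these values cannot decide whether the number marks a shared batch. With the number as a replicate block, Foxo1 in GB-IL was 0.0148 and Insr in RYGB -0.000984 relative to DIO. Among the 10 members depth limits Irs1 and Irs2 most, with as few as 20 and 37 counts in a liver. RLE scaling, upper quartile scaling, robust estimation and a mean of at least 50 counts changed no direction and no call of the 10 members.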

Other observations

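Of the 81 pathway genes, 9 were in the count table with too few counts to be tested, and Irs4 was not analysed. Stc1, a secreted inhibitor of PAPP-A related to Stc2, had 2 or 3 counts in each DIO liver, 41, 6, 0 and 2 counts in GB-IL livers 1 to 4, and 22, 6, 3, 3 and 590 counts in RYGB livers 1 to 5. It was singled out after its counts were seen, and 590 of its 624 counts in RYGB came from liver 5, the liver that was also highest of its group for Stc2, Grb10, Igfbp1 and the neutrophil and endothelial markers. The protease Pappa had 2 counts in the DIO livers together, 16 in GB-IL and 22 in RYGB.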
